A study of Mus musculus with 12 samples.

Results

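The carboxylesterases are serine hydrolases that split ester and amide bonds in drugs, plant esters and stored lipids. In liver most of them are held in the lumen of the endoplasmic reticulum, where a short signal at the carboxy terminus is recognised by the KDEL receptors, while Ces1c is known as the esterase of mouse plasma. Their genes lie in tandem arrays and fall into subfamilies by sequence. The 10 members described here are the listed genes Ces1b, Ces1c, Ces1d, Ces1e, Ces1f, Ces1g, Ces2a, Ces2c, Ces3a and Ces3b, matched by symbol to Ensembl mouse gene identifiers. They are 10 of 20 annotated carboxylesterase genes, of which 19 are protein-coding, and 10 of the 53715 genes in the table of raw counts.

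RNA was sequenced from 12 libraries of C57BL/6JOlaHsd mice, 4 biological replicates in each of 3 groups, to follow how far hepatoblasts in culture turn into hepatocytes. Hepatoblasts were taken from pooled livers of E14.5 embryos by magnetic sorting on the surface protein Dlk1 and lysed directly. Diff. hepatocytes were the same kind of cells after 4 days on plates coated with fibronectin, seeded in differentiation medium to which dexamethasone and Matrigel had been added. By the study's methods, sorted cells of this stage include some that carry the bile duct marker Sox9. Mature hepatocytes came from collagenase-perfused livers of adult male mice aged 8 to 12 weeks and were lysed without culture. The labels name no transgene or edited allele for any group. Fetal origin, culture and adult age are therefore joined to the groups, and the embryos' sex is not given in the sources used here.

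All members lie on chromosome 8 of GRCm38. Ces1b (ENSMUSG00000078964, chr8:93056728-93080017), Ces1c (ENSMUSG00000057400, chr8:93099015-93131283), Ces1d (ENSMUSG00000056973, chr8:93166068-93197838), Ces1e (ENSMUSG00000061959, chr8:93201218-93229619), Ces1f (ENSMUSG00000031725, chr8:93256236-93279747) and Ces1g (ENSMUSG00000057074, chr8:93302369-93337308) stand next to each other on the minus strand. Ces2a (ENSMUSG00000055730, chr8:104734003-104741634), Ces2c (ENSMUSG00000061825, chr8:104847068-104854483), Ces3a (ENSMUSG00000069922, chr8:105048601-105058413) and Ces3b (ENSMUSG00000062181, chr8:105083753-105093929) form a second array on the plus strand. The counts refer to whole genes and thus to their exons. Coding sequences of the 10 members were 1665 to 1716 bases long in the GENCODE M21 transcripts. Identity between coding sequences was 72.1% to 90.9% for the 15 pairs within Ces1, 82.6% for Ces2a and Ces2c, 95.3% for Ces3a and Ces3b, and 53.4% to 57% for the 28 pairs between subfamilies.

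The ends of the coding sequences, the stretch where a retention signal would be encoded, show how the members differ. The last 30 bases before the stop codon are given 5′ to 3′ from the GENCODE M21 transcripts, with the last 4 codons in capitals.
Ces1b: acagaccctactgagcacAGAGAACACAAA
Ces1c: acagaccctactgaacacACAGAACACAAA
Ces1d: aggccatcccacagggaaCATGTTGAGCTC
Ces1e: aagcaactgccgacagaaCACACTGAGCTG
Ces1f: aaacaaccccagccatacCACAATGAGCTG
Ces1g: aggtcatcccatagggaaCATGTTGAACTG
Ces2a: aagggttctcaggacaagCATGCAGAGCTG
Ces2c: aaggcttctcaggacaagCACAGGGAGCTT
Ces3a: cagagaagcaggaaagttCCAGAGGAGCTC
Ces3b: cagagaagcaggaaagttCCAGAGGAGCTC
Ces1b and Ces1c both closed with CAC and AAA, and the other members with GAG or GAA followed by CTC, CTG or CTT. Retention of the proteins was not measured. The ends of Ces3a and Ces3b were identical in all 30 bases.

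Upstream sequences were taken from RefSeq (GRCm38.p6), which gave an entry for 7 of the 10 members. The 250 bases before the start site are shown for the 4 members that were higher in Diff. hepatocytes than in hepatoblasts, Ces1b (chr8:93079941-93080190, minus strand), Ces1c (chr8:93131284-93131533, minus strand), Ces2a (chr8:104733753-104734002, plus strand) and Ces2c (chr8:104846818-104847067, plus strand). Ces1b has a second entry that begins further upstream (chr8:93080018-93080267), and the entry that aligns with Ces1c is shown. Part of the window shown lies within the Ces1b gene as GENCODE M21 places it (chr8:93056728-93080017). Capitals mark matches to 7 motifs searched on both strands.
Ces1b: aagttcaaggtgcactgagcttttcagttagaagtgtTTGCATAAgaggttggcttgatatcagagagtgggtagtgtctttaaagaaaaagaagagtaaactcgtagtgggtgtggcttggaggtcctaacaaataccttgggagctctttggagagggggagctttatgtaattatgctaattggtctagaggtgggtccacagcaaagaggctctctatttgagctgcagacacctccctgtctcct
Ces1c: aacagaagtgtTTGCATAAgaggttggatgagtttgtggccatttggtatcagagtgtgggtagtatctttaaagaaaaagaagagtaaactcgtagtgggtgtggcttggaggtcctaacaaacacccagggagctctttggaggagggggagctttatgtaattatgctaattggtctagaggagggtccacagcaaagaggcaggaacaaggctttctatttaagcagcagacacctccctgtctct
Ces2a: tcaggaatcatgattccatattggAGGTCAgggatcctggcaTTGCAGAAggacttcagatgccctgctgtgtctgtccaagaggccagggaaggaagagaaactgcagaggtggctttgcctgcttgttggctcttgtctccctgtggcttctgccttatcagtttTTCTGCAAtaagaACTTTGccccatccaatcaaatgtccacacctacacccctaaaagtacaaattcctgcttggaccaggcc
Ces2c: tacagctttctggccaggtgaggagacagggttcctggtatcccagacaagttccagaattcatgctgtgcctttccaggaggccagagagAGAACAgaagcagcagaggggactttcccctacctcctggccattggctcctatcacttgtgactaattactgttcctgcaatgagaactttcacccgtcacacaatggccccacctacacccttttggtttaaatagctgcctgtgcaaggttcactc
Ces1b and Ces1c were 94.6% identical over 223 aligned bases, and Ces2a and Ces2c 63.3% over 245. The dyad read by C/EBP factors, TTGCNNAA, matched in Ces1b, Ces1c and Ces2a, as it did in 9.56% of all 32851 promoters. Ces2a also held AGGTCA (14% of promoters), a single nuclear receptor element, and CAAAGT (12.6%), the core of an HNF4 site. AGAACA (16.1%), a single glucocorticoid receptor element, was the only match in Ces2c. It also matched in Ces3b, which was not called in culture, 119 to 114 bases before the start site. The antioxidant response core TGACNNNGC (10.2%) had no match in these windows. No matches overlapped one another.

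TATAAA, the TATA box, was found in 12.4% of promoters, and among the members in Ces1g and Ces3b, which did not pass the test between Diff. hepatocytes and hepatoblasts. The 100 bases before their RefSeq start sites, Ces1g at chr8:93337210-93337309 (minus strand) and Ces3b at chr8:105083655-105083754 (plus strand), carry it in capitals. In Ces1g the match is on the opposite strand and reads TTTATA. Nearly all of the Ces1g window lies within the gene as GENCODE M21 places it (chr8:93302369-93337308). In Ces3b a GTTAAT match (6.43% of promoters), part of an HNF1 site, is capitalised as well.
Ces1g: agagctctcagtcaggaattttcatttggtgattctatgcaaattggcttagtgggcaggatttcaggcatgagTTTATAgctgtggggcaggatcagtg
Ces3b: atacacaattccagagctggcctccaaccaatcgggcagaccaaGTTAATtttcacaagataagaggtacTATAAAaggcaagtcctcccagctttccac
These matches describe letters in a window and no binding was measured.

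Hepatoblast libraries held 21523329 to 25216977 counts on genes, Diff. hepatocyte libraries 19581551 to 22026087 and mature hepatocyte libraries 20043218 to 23791477. Levels are given as counts-per-million values (CPM) after TMM scaling, and the factors of 1.23 to 1.44, 1.03 to 1.08 and 0.677 to 0.778 in the 3 groups move values between them. Without these factors the median log2 fold change of all genes would shift from -0.01 to -0.34 for Diff. hepatocytes against hepatoblasts, from -0.15 to -1.0 for mature hepatocytes against hepatoblasts and from 0.09 to 0.62 for Diff. against mature hepatocytes. The sorting marker Dlk1 had log2 fold changes of -5.23 in Diff. hepatocytes and -9.71 in mature hepatocytes against hepatoblasts (edgeR adjusted p = 1.43e-09 and 8.28e-12). For the 5 measured hepatocyte markers (Alb, Ttr, Apoa1, Serpina1a, Ahsg) the summed level was 34903 to 59208 CPM in hepatoblasts, against 66542 to 80672 in culture and 110310 to 152990 in the adult cells. Markers of other cell types were detected as well. The 8 erythroid markers summed to 166 to 1482 CPM in hepatoblasts, against 3.46 to 5.4 in culture and 134 to 182 in the adult cells, where Alas2 made up nearly all of the sum and Epb42 was at 0. The 8 mesenchymal markers, none at 0 in a whole group, summed to 1241 to 2242, 1132 to 2586 and 66.5 to 97.3 CPM in the same order. From hepatoblasts to culture single mesenchymal markers moved in opposite directions. Mean Reln went from 864 to 93.0 CPM, while Col1a1 went from 300 to 694 and Col3a1 from 280 to 477 CPM. The 7 bile duct markers summed to 26.9 to 35.7 CPM in hepatoblasts, against 92.7 to 233 in culture and 37.4 to 66.0 in the adult cells. Mean Krt7 went from 1.56 to 41.9 CPM and Krt19 from 1.75 to 47.3 CPM in culture, while Sox9 was at 4.73 and 4.76 CPM. For the 8 endothelial markers the sums were 34.5 to 138, 4.89 to 10.7 and 132 to 235 CPM, and for the 8 macrophage markers 76.7 to 325, 21.6 to 129 and 119 to 231 CPM. Hepatoblast replicate 1 had the highest erythroid, macrophage and endothelial sums of its group, and Diff. replicate 1 the highest erythroid, macrophage, mesenchymal and bile duct sums of its own. Their part in the results below was not tested, and in bulk RNA fewer cells of a type and less RNA per cell cannot be told apart.

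All 10 members were higher in mature hepatocytes than in hepatoblasts, and culture brought only some of them towards the adult level. Ces2a in Diff. hepatocytes stood at 96% of its mean in mature hepatocytes. Ces1c, Ces1d and Ces2c reached 3.51%, 3.84% and 4.32%, and Ces1b, Ces1e, Ces1f, Ces1g, Ces3a and Ces3b between 0.0257% and 1.09%. Reads on the 10 genes made up 0.00839% ± 0.00141 of all counts in hepatoblasts, a share that was 0.0628% ± 0.0123 in culture and 0.639% ± 0.0368 in the adult cells (SD, n = 4 each). The plot of the 12 libraries gives each member's values on a log axis.

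**Figure D1:**
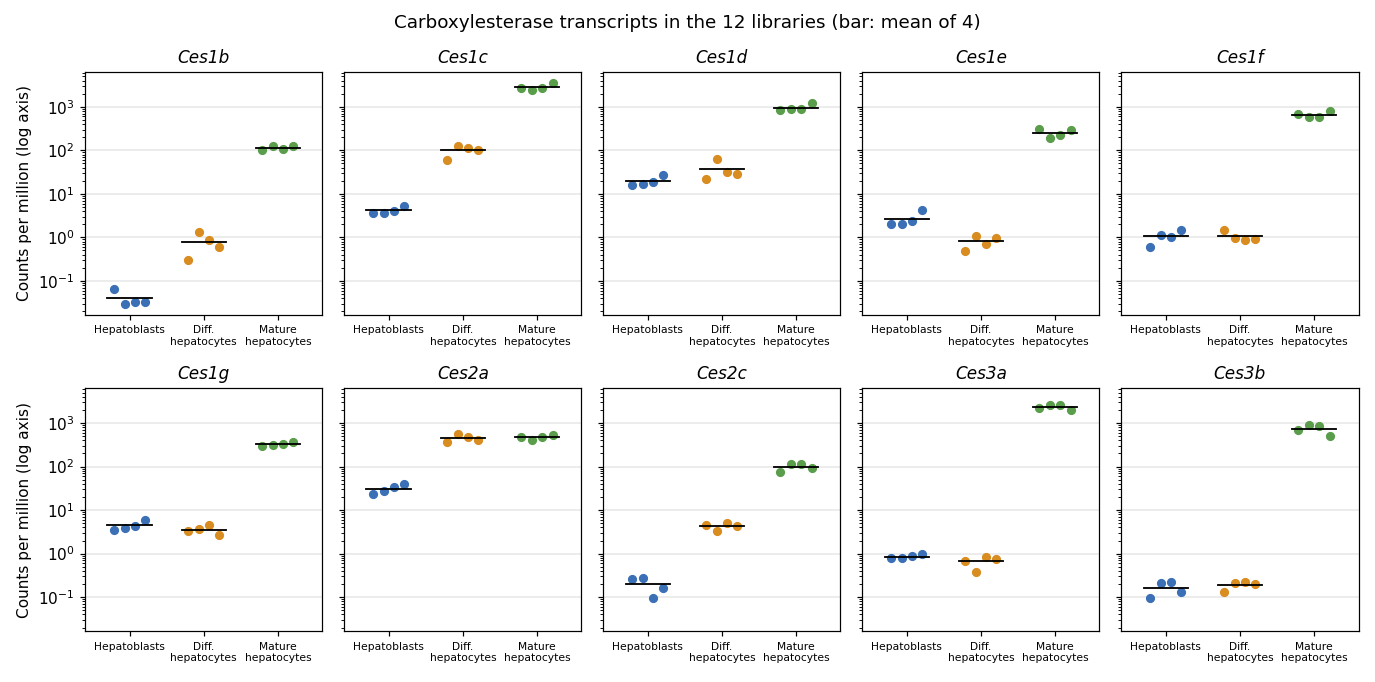
CPM (log axis) of the 10 carboxylesterases in each of the 4 libraries of hepatoblasts, Diff. hepatocytes and mature hepatocytes, with a bar at the mean of each group. Mature hepatocytes lie above hepatoblasts for every member, and Ces2a is the one member whose Diff. and mature libraries overlap.

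Ces2a, a carboxylesterase of liver and intestine, was the one member near its adult level in culture. It read 23.6, 28.2, 34.3 and 38.9 CPM in hepatoblast replicates 1 to 4. The Diff. hepatocyte libraries had 369, 549, 476 and 414 CPM, and the mature hepatocyte libraries 468, 409, 477 and 529 CPM. The Diff. and mature ranges overlapped, and both lay above all hepatoblast libraries. The log2 fold change of Ces2a was 3.86 (SE 0.18) in Diff. hepatocytes and 3.91 (SE 0.18) in mature hepatocytes against hepatoblasts, with edgeR quasi-likelihood adjusted p (Benjamini-Hochberg) of 2.21e-09 and 4.66e-10. Between Diff. and mature hepatocytes the difference for Ces2a was -0.06 (95% interval -0.40 to 0.28, edgeR adjusted p = 0.764). This last sign turned with the scaling, since library totals without TMM factors gave 0.47 (edgeR adjusted p = 0.00482), beside a median of 0.62 for all genes on that scale, and it was 0.03 without Diff. replicate 1. Of the 75-base sequences of Ces2a transcripts, 11.4% also occur in the pseudogene Gm7208.

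Ces2c, whose product has been described as an acylcarnitine hydrolase, started far lower. Its counts in hepatoblasts were 8, 9, 3 and 5, or 0.0971 to 0.269 CPM. Diff. hepatocytes had 4.63, 3.23, 5.11 and 4.24 CPM of Ces2c, and mature hepatocytes 75.7, 118, 114 and 91.1 CPM. The 3 ranges were separate. Ces2c rose by 4.40 on the log2 scale (SE 0.28, edgeR adjusted p = 2.76e-08) in culture and was 8.93 (SE 0.26) higher in mature hepatocytes than in hepatoblasts. The level of Ces2a per kilobase of exon was 191 ± 120 times that of Ces2c in hepatoblasts, against 107 ± 39.6 times in culture and 4.79 ± 1.26 times in the adult cells (SD, n = 4 libraries each). Ces2c shares 22.1% of its 75-base sequences with other genes, mostly the pseudogene Ces2d-ps, and reads from shared stretches cannot be assigned to one gene.

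Ces1c, the plasma esterase, was the most abundant member in mature hepatocytes. Hepatoblast replicates 1 to 4 had 3.55, 3.67, 4.05 and 5.34 CPM of Ces1c, Diff. hepatocytes 61.6, 124, 111 and 100.2 CPM, and mature hepatocytes 2698, 2385, 2679 and 3541 CPM. No libraries of different groups overlapped. Ces1c rose by 4.58 on the log2 scale in Diff. hepatocytes (SE 0.24, edgeR adjusted p = 5.73e-09) and had a log2 fold change of -4.83 against mature hepatocytes (SE 0.23, edgeR adjusted p = 1.61e-09). The lowest Diff. value of Ces1c belonged to replicate 1, and without this library the rise in culture stayed past the threshold. Diff. replicate 1 had the highest mesenchymal, bile duct and macrophage marker sums of its group, and their part in this value was not tested.

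Ces1b, the neighbour of Ces1c with the near-identical upstream sequence and a coding end of the same kind, was almost silent in hepatoblasts. Its counts there were 2, 1, 1 and 1, against 7, 31, 20 and 12 in Diff. hepatocytes and 1464, 1919, 1825 and 1991 in mature hepatocytes, where it reached 100.4 to 124 CPM. Over the group, the Diff. to hepatoblast ratio of Ces1b was 19.7 with a counting interval of 8.06 to 62.6, and the mature to hepatoblast ratio 2851 with an interval of 1221 to 8783. The fitted rise of Ces1b in culture was 4.12 on the log2 scale (SE 0.53, edgeR adjusted p = 1.84e-05), a value that depends on the prior count. Per kilobase, the level of Ces1c was 98.1 ± 37.4 times that of Ces1b in hepatoblasts, against 125 ± 41.1 times in culture and 21.1 ± 3.40 times in the adult cells. The pair has 85 of its 75-base sequences in common, 4.5% of those of Ces1b and 5.08% of Ces1c being shared with another gene.

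Ces1d, the triacylglycerol hydrolase that mobilises stored fat for lipoprotein assembly, had the second highest level per length in hepatoblasts. Its range overlapped that of Ces2a, which was nevertheless higher in each of the 4 libraries. It read 16.1, 16.7, 18.9 and 27.3 CPM in hepatoblasts and 21.7, 64.5, 31.3 and 28.6 CPM after culture. Mature hepatocytes had 847, 898, 867 and 1196 CPM. Hepatoblast and Diff. libraries overlapped for Ces1d. The difference of 0.89 on the log2 scale (SE 0.29, edgeR adjusted p = 0.0178) did not pass. It moved with single libraries, being 1.08 without hepatoblast replicate 4 (edgeR adjusted p = 0.00861), 1.07 without Diff. replicate 1 (edgeR adjusted p = 0.00494), which both pass, and 0.45 without Diff. replicate 2, which holds the 64.5 CPM. Against mature hepatocytes the log2 fold change of Ces1d in culture was -4.70 (SE 0.33, edgeR adjusted p = 4.65e-08). In the same libraries Ces1d was 4.63 ± 0.269 times as high as Ces1c per kilobase in hepatoblasts, against 0.353 ± 0.11 times in culture and 0.331 ± 0.0269 times in the adult cells. The order of the pair in both Diff. and mature hepatocytes was thus opposite to that in hepatoblasts.

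Ces1e, or egasyn, which anchors beta-glucuronidase in the endoplasmic reticulum, was the only member called lower in culture than in hepatoblasts. Hepatoblasts had 2.06, 2.0, 2.43 and 4.18 CPM of Ces1e, Diff. hepatocytes 0.476, 1.08, 0.711 and 0.986 CPM. Mature hepatocytes had 306, 196, 231 and 293 CPM. The groups did not overlap. Ces1e fell by 1.71 on the log2 scale (SE 0.31, edgeR adjusted p = 0.000368), and a test of the fold change against the threshold itself gave an adjusted p of 0.0271, which does not pass. Over the same step the sums of the 8 erythroid markers went from a range of 166 to 1482 CPM to one of 3.46 to 5.4 CPM, and those of the endothelial markers from 34.5 to 138 CPM to 4.89 to 10.7 CPM. Their part in the lower level of Ces1e was not tested. Gusb, the gene of beta-glucuronidase, had mean levels of 74.9, 46.3 and 39.6 CPM in hepatoblasts, Diff. and mature hepatocytes. It was not called in any comparison. Against hepatoblasts it still differed by -0.69 in culture (edgeR adjusted p = 4.66e-05) and -0.92 in mature hepatocytes (edgeR adjusted p = 1.97e-06), short of the fold change limit.

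Ces1f and Ces1g did not pass the test between Diff. hepatocytes and hepatoblasts. Ces1f, a second lipid hydrolase of the endoplasmic reticulum, had 0.613, 1.10, 1.04 and 1.46 CPM in hepatoblasts and 1.47, 0.990, 0.888 and 0.937 CPM after culture, against 669, 575, 598 and 813 CPM in the adult cells. Its difference in culture was 0.03 (95% interval -0.53 to 0.59, edgeR adjusted p = 0.927), with a sign that turned to -0.28 on library totals, -0.15 without hepatoblast replicate 1 and -0.16 without Diff. replicate 1. Ces1g read 3.48, 3.94, 4.37 and 5.93 CPM, then 3.24, 3.66, 4.58 and 2.61 CPM, and 298, 307, 328 and 363 CPM in the same order of groups. Its difference in culture was -0.33 (95% interval -0.72 to 0.07, edgeR adjusted p = 0.141). Both sets of fetal and cultured libraries overlapped, while every mature library was higher. Relative to mature hepatocytes, the log2 fold change in culture was -9.26 for Ces1f (SE 0.25, edgeR adjusted p = 7.93e-12) and -6.52 for Ces1g (SE 0.20, edgeR adjusted p = 2.44e-11).

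Ces3a and Ces3b, the pair of the Ces3 subfamily, had the largest distances between culture and adult liver. Ces3a was at 0.774, 0.806, 0.874 and 0.961 CPM in hepatoblasts and 0.692, 0.387, 0.844 and 0.740 CPM after culture, against 2204, 2590.3, 2543 and 2042 CPM in the adult cells. Ces3b had 3 to 7 counts per library in hepatoblasts and 3 to 5 in Diff. hepatocytes, against 683, 921, 866 and 499 CPM in mature hepatocytes. Neither changed past the threshold in culture. The log2 difference was -0.36 for Ces3a (95% interval -0.83 to 0.11, edgeR adjusted p = 0.17) and 0.18 for Ces3b (95% interval -0.89 to 1.26, edgeR adjusted p = 0.767), the latter turning to -0.13 on library totals. In Diff. against mature hepatocytes the log2 fold changes were -11.78 (SE 0.21, edgeR adjusted p = 6.07e-13) and -11.89 (SE 0.29, edgeR adjusted p = 4.03e-12), and only 14 and 12 of the 17779 genes tested were further below. The pair shares 15.1% and 15.4% of its 75-base sequences, and an exon of Ces3a overlaps Gm45724 on the opposite strand, which had at most 103 counts in a mature library.

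Counted together, 5 of the 10 members passed the thresholds (edgeR adjusted p under 0.01 and absolute log2 fold change over 1) between Diff. hepatocytes and hepatoblasts, where 28.9% of the 17779 genes tested did. Higher in culture were 4 members, Ces1b, Ces1c, Ces2a and Ces2c (14.9% of all genes), and lower was 1, Ces1e (14% of all genes). Between mature hepatocytes and hepatoblasts all 10 passed and were higher, where 44.8% of genes passed, 20.1% as higher and 24.7% as lower. Between Diff. and mature hepatocytes 9 passed and were lower, where 35.8% of genes passed, 15.6% as lower and 20.2% as higher. The split of all genes depended on the scaling. With TMM factors 2648 genes were higher and 2497 lower in the first of these comparisons, 3580 and 4391 in the second and 3586 and 2776 in the last, while library totals gave 1985 and 3621, 2007 and 7920, and 5500 and 1776. The members called numbered 5, 10 and 9 on both scales. The median log2 fold changes of the members were 0.54, 9.11 and -6.84, beside -0.01, -0.15 and 0.09 for all genes tested. Libraries of the groups did not overlap for 5, 10 and 9 members, beside 57.5%, 66% and 61.6% of genes, and on library totals for 7, 10 and 10, beside 60.3%, 73.9% and 66.9%. In exact permutation tests of single members (two-sided, 4 libraries against 4), 24 of the 30 comparisons had p = 0.0286, the smallest such a design can give, which is 0.0358 after Benjamini-Hochberg adjustment over the 30. The comparisons share the hepatoblast, Diff. and mature libraries, so their values stand side by side and are not independent.

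**Figure D2:**
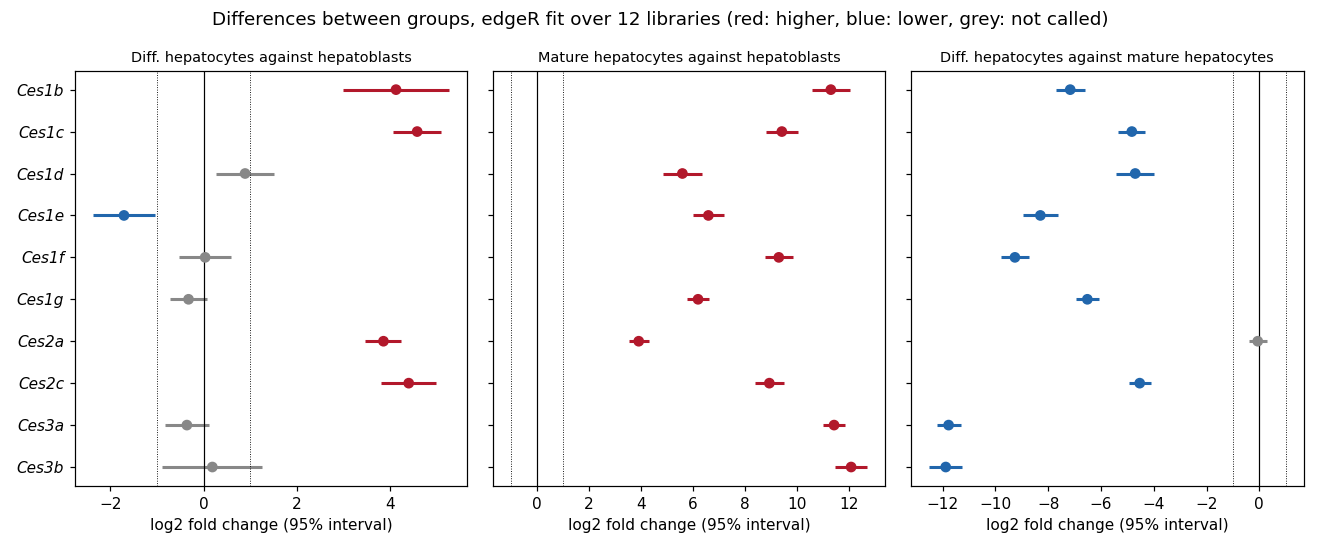
Log2 fold changes of the 10 members with 95% intervals in the 3 comparisons, from the edgeR fit over 12 libraries, with dotted lines at -1 and 1. Points are red where a member was called higher, blue where lower and grey where not called, and Ces2a is the grey point near 0 in the comparison of Diff. with mature hepatocytes.

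The composition of the carboxylesterase transcripts differed between groups. Per kilobase of merged exons, Ces2a made up 48.7% ± 2.65 of the members' summed level in hepatoblasts, against 75.7% ± 2.74 in culture and 5.61% ± 0.377 in the adult cells (SD, n = 4 each). Ces1d held 30.5% ± 1.82, 5.82% ± 1.84 and 11.3% ± 1.25. Ces1c held 6.60% ± 0.396, 16.6% ± 2.19 and 34.1% ± 4.05. These shares sum to a fixed total and were not tested. Ces3a held 1.22%, 0.105% and 25.2%, and Ces3b 0.244%, 0.0293% and 8.22%. The summed level itself was 27.3 ± 6.23, 255 ± 51.5 and 3556 ± 217 CPM per kilobase in the 3 groups.

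**Figure D3:**
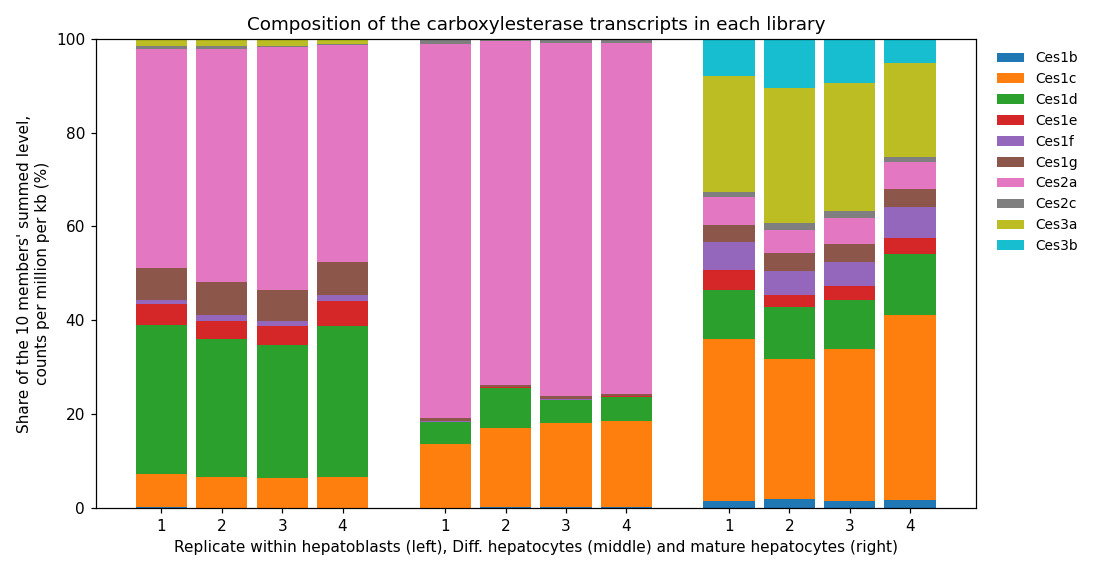
Stacked bars of each member's share (%) of the 10 members' summed level in CPM per kilobase of merged exons, 1 bar per library. Ces2a fills most of the Diff. hepatocyte bars, at 73.2% to 79.6%, and Ces1c and Ces3a are the largest parts of the mature bars.

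By level per kilobase the order in hepatoblasts was Ces2a (13.2 CPM per kilobase), Ces1d (8.34), Ces1g (1.86), Ces1c (1.79), Ces1e (1.22), Ces3a (0.325), Ces1f (0.321), Ces2c (0.0859), Ces3b (0.0648) and Ces1b (0.0204). Ranges of neighbours overlapped in 5 of the 9 steps, those from Ces2a to Ces1d, from Ces1g to Ces1c, from Ces1c to Ces1e, from Ces3a to Ces1f and from Ces2c to Ces3b. In Diff. hepatocytes Ces2a (192), Ces1c (42.7) and Ces1d (15.4) led, and Ces2c (1.87), Ces1g (1.48), Ces1b (0.397), Ces1e (0.371), Ces1f (0.326), Ces3a (0.253) and Ces3b (0.0745) followed. Ranges overlapped in 5 of the 9 steps there too. In mature hepatocytes the order was Ces1c (1216), Ces3a (893), Ces1d (402), Ces3b (289), Ces1f (202), Ces2a (199.6), Ces1g (136), Ces1e (117), Ces1b (57.7) and Ces2c (43.4), and again 5 of 9 neighbouring pairs overlapped. Dividing by the longest transcript instead of merged exons turned the order of some neighbours in each group. In hepatoblasts Ces1c (2.27 CPM per kilobase) then stood before Ces1g (1.86), and Ces1f (0.547) before Ces3a (0.417). In Diff. hepatocytes Ces1f (0.556) came before Ces1b (0.397) and Ces1e (0.392), and in mature hepatocytes Ces1f (345) before Ces3b (309).

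The other 10 carboxylesterase genes were mostly low. Ces1a, Ces1h, Ces2d-ps, Ces2f, Ces2h and Ces5a had 10 counts or fewer in every library and were not tested. The 4 tested genes, Ces2b, Ces2e, Ces2g and Ces4a, were all called higher in mature hepatocytes than in hepatoblasts (20.1% of all genes tested). All were called lower in Diff. than in mature hepatocytes (15.6%). Ces2b read 0.372 to 10.7 CPM in mature hepatocytes, against 0.328 to 0.530 CPM in hepatoblasts and 0.0865 to 0.489 CPM in culture. Its mature range thus overlapped both others. Ces2e, which lies between Ces2c and Ces3a, read 3.48 to 6.76 CPM in hepatoblasts, against 6.96 to 13.6 CPM in culture and 252 to 303 CPM in the adult cells, and was higher in culture by 1.05 on the log2 scale (SE 0.23, edgeR adjusted p = 0.00127). Ces4a had counts of 1, 0, 0 and 0 in hepatoblasts, against 10, 10, 12 and 12 in culture and 53 to 215 in the adult cells, and was called higher in culture (edgeR adjusted p = 9.13e-05). Ces2g stood out in hepatoblast replicate 1, with 452 counts against 51 to 101 in the others. That library had the highest erythroid, macrophage and endothelial sums of its group, and their part in this value was not tested. Apart from Ces2a, the highest share of the adult mean reached in culture by a tested carboxylesterase was the 5.63% of Ces4a.

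**Figure D4:**
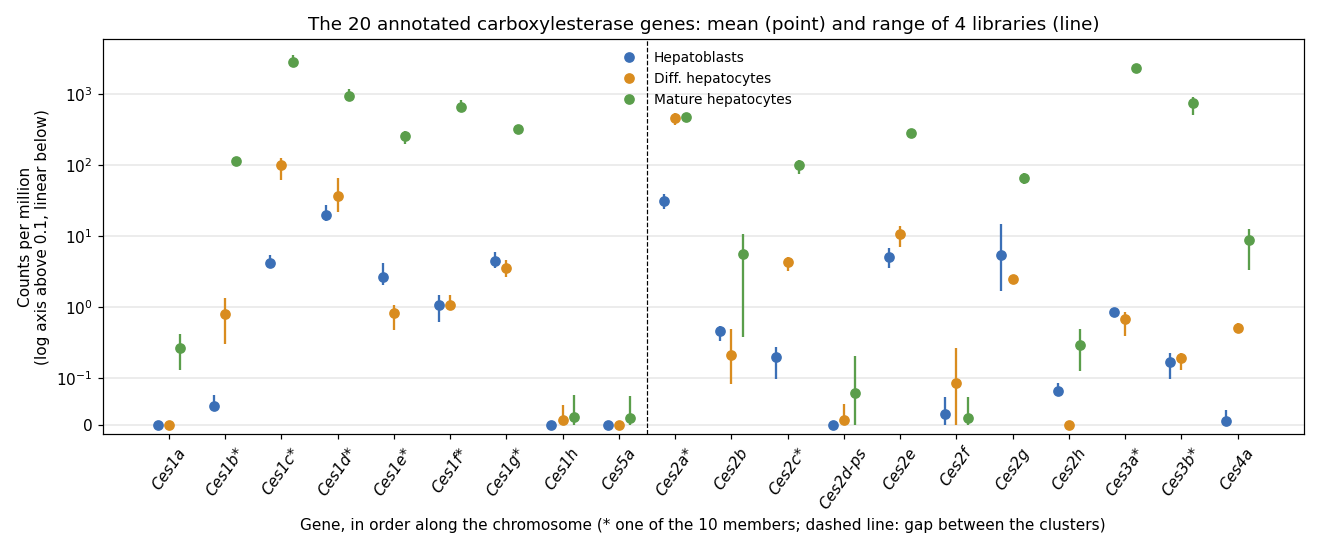
Mean (point) and range (line) of CPM of the 20 annotated carboxylesterase genes in 4 libraries per group, in their order along the chromosome, on an axis that is logarithmic above 0.1 and linear below. Members carry an asterisk, and the dashed line marks the gap between the minus-strand and the plus-strand array.

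Genes next to the arrays that are no carboxylesterases were counted in the same comparisons. Of 16 neighbours of the Ces1 and Ces5a array 11 were tested, and 0 were called higher and 2 lower in culture, 2 higher and 4 lower in mature hepatocytes against hepatoblasts, and 4 higher and 1 lower in Diff. against mature hepatocytes. Of 16 neighbours of the Ces2 to Ces4a array 15 were tested, and the corresponding counts were 5 and 2, 6 and 3, and 3 and 4. The shares of all genes tested were 14.9% and 14%, 20.1% and 24.7%, and 20.2% and 15.6% in this order. Medians of these neighbours lay between -0.87 and 0.55 on the log2 scale in the 3 comparisons.

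Other hydrolases of esters and lipids were followed as a list. Of these 18 genes, 3 were higher and 3 lower in culture than in hepatoblasts, 12 were higher and 2 lower in mature hepatocytes than in hepatoblasts, and 1 was higher and 11 lower in Diff. than in mature hepatocytes. Among all genes tested, 14.9% were higher and 14% lower, 20.1% and 24.7%, and 20.2% and 15.6% in the same order. The counts in culture against hepatoblasts were thus near the share of all genes. Pon1, the paraoxonase of high-density lipoprotein, was furthest below mature hepatocytes in this list, with mean levels of 5.16, 1.13 and 733 CPM and a log2 fold change of -9.32 (SE 0.29, edgeR adjusted p = 2.44e-11) in Diff. against mature hepatocytes. Pnpla2, the adipose triglyceride lipase, was called higher in culture than in hepatoblasts with mean levels of 16.7, 137 and 110.2 CPM, and the difference of 0.32 between Diff. and mature hepatocytes did not pass (SE 0.14, edgeR adjusted p = 0.0588). Aadac, an esterase of the same compartment, had 286, 159.9 and 576 CPM. Of the 7 genes of very-low-density lipoprotein assembly, 2 (Tm6sf2 and Sar1b) were higher in culture, 5 were higher in mature hepatocytes than in hepatoblasts, and 3 (Apob, Cideb and Tm6sf2) were lower in Diff. than in mature hepatocytes.

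Among 16 nuclear receptors and liver factors, 7 were higher and 2 lower in culture than in hepatoblasts, 12 were higher and 1 lower in mature hepatocytes than in hepatoblasts, and 1 was higher and 7 lower in Diff. than in mature hepatocytes. For all genes tested the shares were 14.9% and 14%, 20.1% and 24.7%, and 20.2% and 15.6%. Nr1i3, the constitutive androstane receptor that drives drug metabolism genes, had 0.824, 5.18 and 50.2 CPM in hepatoblasts, Diff. and mature hepatocytes. Ghr, the growth hormone receptor, had 73.8, 68.3 and 724 CPM, and a log2 fold change of -3.41 in Diff. against mature hepatocytes (SE 0.14, edgeR adjusted p = 3.37e-10). Cebpa, a factor of hepatocyte maturation, had 150.3, 113 and 797 CPM, and its difference of -0.42 in culture did not pass (edgeR adjusted p = 0.0508). Nr3c1, the receptor for the dexamethasone in the medium, differed by 0.14 between culture and hepatoblasts (edgeR adjusted p = 0.151). Of the KDEL receptors, which return proteins to the endoplasmic reticulum, Kdelr3 was higher in Diff. hepatocytes than in hepatoblasts by 2.83 (SE 0.24, edgeR adjusted p = 3.69e-07) and than in mature hepatocytes by 4.52 (SE 0.28, edgeR adjusted p = 1.46e-08). In mature hepatocytes against hepatoblasts it was lower (-1.69, edgeR adjusted p = 0.000103). Kdelr1 and Kdelr2 were not called, though Kdelr2 differed by -0.67 in culture against hepatoblasts (edgeR adjusted p = 0.00016). Mean levels in culture were 104, 121 and 18.9 CPM for Kdelr1, Kdelr2 and Kdelr3.

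**Figure D5:**
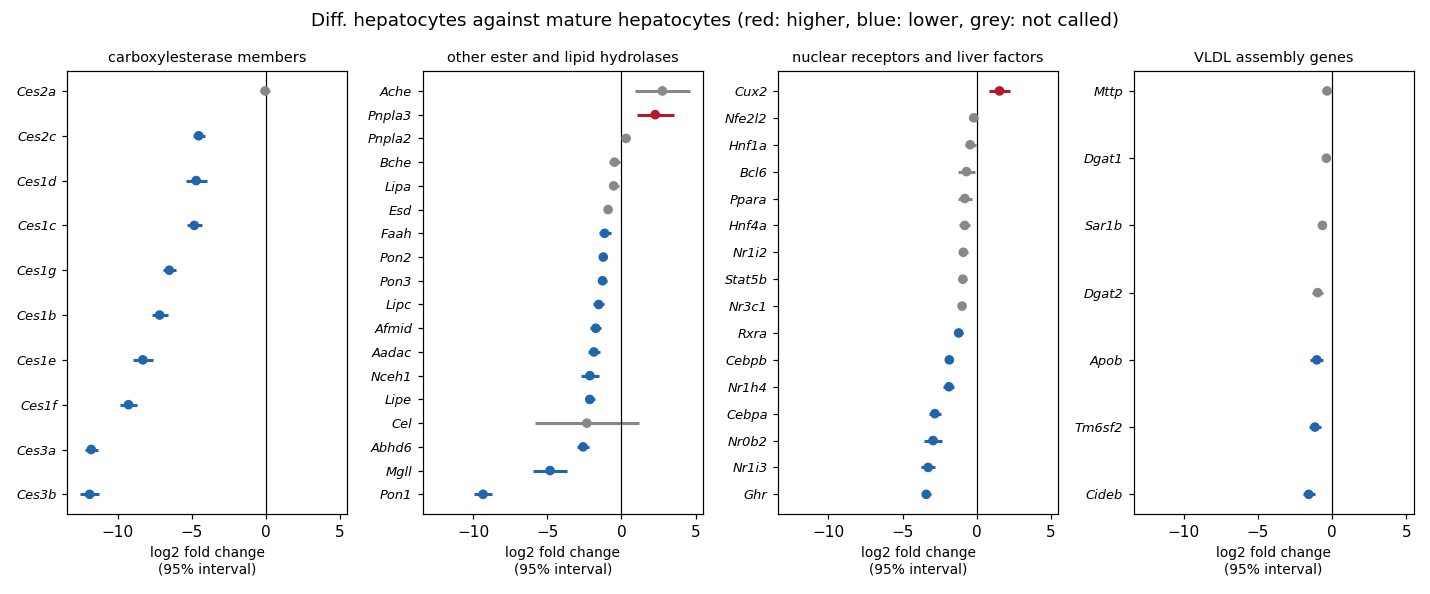
Log2 fold changes with 95% intervals in Diff. against mature hepatocytes for the 10 members, 18 other hydrolases, 16 nuclear receptors and liver factors and 7 genes of lipoprotein assembly (blue, lower; red, higher; grey, not called). The members run from -11.89 for Ces3b to -0.06 for Ces2a, and Pon1, at -9.32, lies within their range.

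Genes whose pattern over the 12 libraries was most like each member were sought among 8687 genes, as the smallest root mean square difference between centred log2 CPM. They were Hsd11b1 for Ces1b (0.52), Cyp2d9 for Ces1c (0.38), Rarres2 for Ces1d (0.31), Gabbr2 for Ces1e (0.41), Mug2 for Ces1f (0.37), Cmah for Ces1g (0.27), Rusc2 for Ces2a (0.31), Gm20319 for Ces2c (0.36), Mup11 for Ces3a (0.38) and Nat8f2 for Ces3b (0.47). Within the family Ces2e was second for Ces1d (0.32). Among the members the closest pair was Ces3a and Ces3b (0.40), followed by Ces1c and Ces2c (0.62), which belong to different arrays, and the farthest was Ces2a and Ces3a (4.80).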

How the data were processed

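The members and gene lists were chosen with earlier results of these data known. Poly(A) RNA was sequenced as 75-base single reads in 12 libraries. The authors deposited unnormalized raw counts of reads per gene, and their processing notes name FastQC 0.11.2, STAR 2.5.2b, Picard 2.10.2 and DESeq2 1.22.2 with GRCm38. The paper gives the gene annotation as an Ensembl release. STAR's strand setting is not given in the sources used here.

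Counts were fitted in R 4.3.3 with edgeR 4.0.16 (TMM, quasi-likelihood test, group as the only term, all 12 libraries in one fit). A gene entered the test if some library had more than 10 counts of it (17779 of 53715). Calls needed a log2 fold change beyond 1 in either direction together with a p, adjusted by the Benjamini-Hochberg method, below 0.01. Log2 CPM used a prior count of 2. Ratios for Ces1b carry 95% counting intervals, which cover counting error only. A library with 0 counts allows up to 3 counts. Alternatives were DESeq2 1.42.0, other scalings, filters and thresholds, a replicate block and leaving out each library. All 10 members were named, with genes of the fixed lists and, per member, the genes most alike among those with a mean of at least 10 CPM. Of the 53715 identifiers, 53620 were found in GENCODE M21, which gave positions, lengths and transcripts. Sequences were aligned with MAFFT 7.526. Reads from sequence shared between genes cannot be assigned to one gene, and values of Ces2c, Ces3a, Ces3b and Ces2a carry that uncertainty. Libraries of a group differed by more than counting error (chi-square per gene 6.43 to 99.2).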

Additional observations from a re-analysis of the deposited data

Results flagged for a closer look

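In 2 of the 30 sets of 4 libraries (10 members in 3 groups) one library lay far from the other 3, where chance alone would set apart 1.5. Ces1b in hepatoblast replicate 1 read 0.0645 CPM, which is 2 counts against 1 count in each of the others. Ces1d in mature hepatocyte replicate 4 read 1196 CPM against 847 to 898 CPM in replicates 1 to 3. Ces1d remained lower in Diff. than in mature hepatocytes and higher in mature hepatocytes than in hepatoblasts without that library.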

How the results depend on the processing

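Of the recomputed values of the members, 486 kept their direction and their side of the thresholds, 7 changed sign, 3 newly passed and 1 no longer passed. Leaving out one library at a time gave 5 to 6 members called between Diff. hepatocytes and hepatoblasts, and 10 and 9 in the other comparisons. The sixth is Ces1d, called without hepatoblast replicate 4 or Diff. replicate 1, and also at the looser limit of 0.05 without a limit on the fold change. Requiring at least 10 counts in every library left 3, 6 and 5 members called, since members with few counts in the fetal or cultured cells are then not tested. Only Ces1c, Ces1d, Ces1e, Ces1f, Ces1g and Ces2a were tested under this filter, and all of them stayed called in mature hepatocytes against hepatoblasts. Signs turned for Ces1f in culture against hepatoblasts (-0.28 on library totals, -0.15 without hepatoblast replicate 1, and -0.16 to 0.22 over all single libraries left out), for Ces3b there (-0.13 on library totals) and for Ces2a against mature hepatocytes (0.47 on library totals, 0.050 with 10 counts in every library, and -0.17 to 0.028 over single libraries left out, the latter without Diff. replicate 1). None but the 0.47 of Ces2a (edgeR adjusted p = 0.00482) fell under 0.01. Putting the threshold into the edgeR test (glmTreat) lost Ces1e in culture (4 members called). Over all 17779 genes tested, calls in the 3 comparisons were 5145, 7971 and 6362 in the analysis as reported, 2966, 5750 and 4221 with glmTreat, and 10615, 12870 and 11580 at the looser limit. With 10 counts in every library they were 2634, 4379 and 3107 of the 11090 genes then tested. Between hepatoblasts and Diff. hepatocytes, 3 of the 4 pairs of libraries with the same number deviated together (r = 0.32, 0.25 and 0.18, with -0.06 for replicate 2). Of the hepatoblast libraries 2 of 4 correlated best with their own number, and of the Diff. libraries 3 of 4. The 8 pairs with mature hepatocytes had r from -0.08 to 0.09. These values do not settle whether hepatoblast and Diff. libraries of the same number are paired, and the main fit took no pairing. A fit with a replicate block, which also spans the mature libraries, called 5, 10 and 9 members, as without it. Depth limits Ces1b, Ces2c and Ces3b, with 1 to 9 counts per hepatoblast library.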

Other observations

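The 4 mature libraries differed from one another by gene within the family. Ces3b was at 921 and 866 CPM in replicates 2 and 3 and at 683 and 499 CPM in replicates 1 and 4. Ces3a, Ces2c and the non-member Ces2g were also higher in both of these replicates, with 2590.3 and 2543 against 2204 and 2042 CPM for Ces3a, 118 and 114 against 75.7 and 91.1 CPM for Ces2c, and 76.2 and 75.0 against 57.5 and 54.6 CPM for Ces2g. Ces4a had 192 and 215 counts there against 104 and 53, and Ces2b 167 and 146 against 40 and 6. These genes lie in the same array, but not all of its genes followed. Ces2a was lowest in replicate 2 (409 CPM) and highest in replicate 4 (529 CPM), and Ces2e read 303, 294, 299 and 252 CPM in replicates 1 to 4. In the other array Ces1c, Ces1d, Ces1f and Ces1g were highest in replicate 4, at 3541, 1196, 813 and 363 CPM, Ces1b was at 124 CPM there and 123 CPM in replicate 2, and Ces1e was highest in replicate 1, at 306 CPM. Bcl6, a repressor that responds to growth hormone, had 1059, 325, 596 and 809 counts in replicates 1 to 4. It is 1 of the 16 listed nuclear receptors and liver factors, and the others are not given by replicate here. The pattern was noticed after the values were seen, and its cause was not tested.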
